A study of Mus musculus with 8 samples.

Results

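Oxidative phosphorylation is carried out by 5 protein complexes of the inner mitochondrial membrane, and the genes described here are those of the nucleus that code for their subunits. They were chosen by symbol alone: a gene entered if its probe set had a single symbol beginning with Ndufa, Ndufb, Ndufc, Ndufs, Ndufv, Uqcr, Atp5 or Cox4 to Cox8, or was Sdha, Sdhb, Sdhc or Sdhd. Ndufa4l2, a paralogue of Ndufa4, was left out by the same rule and is given separately. The rule found 88 of the 19938 genes measured, of which 41 belong to complex I, 4 to complex II, 8 to complex III, 18 to complex IV and 17 to complex V. Because the symbols of some complex I assembly factors begin with Ndufa, the set holds 7 assembly factors beside the subunits, and it holds 1 supercomplex factor, Cox7a2l. The subunits comprise 23 core subunits, 50 accessory subunits and 7 isoforms of complex IV that are restricted to certain tissues.

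The cells were MaF pre-iPSC9P2, a mouse line of pre-iPSCs, that is, cells in which reprogramming to induced pluripotency has started but is incomplete. In the vitamin C group, ascorbate was present at 50 µg/ml from day 2, the day after plating, and in the untreated group the same medium was used without it. Both groups grew on feeder cells in mESC (mouse embryonic stem cell) medium that was renewed daily, and in both the feeder cells were removed after trypsin treatment before RNA was taken. Each group had 4 Affymetrix arrays, 1 for each of days 3, 4, 5 and 6, all from this 1 line, and the labels do not say whether the days came from separate cultures. With 1 array per treatment and day, no single-day difference could be checked against a replicate, and the p-values cover only variation among the 8 arrays, some of which may be technical.

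Complex I takes electrons from NADH and complex II takes them from succinate. Both pass them through ubiquinone to complex III and on through cytochrome c to complex IV, which reduces oxygen, and complex V uses the proton gradient built on the way to make ATP. A few subunits come from mitochondrial DNA and all others from nuclear genes. Pluripotent cells are known to draw much of their energy from glycolysis, and the respiratory chain is known to be remodelled during reprogramming of somatic cells.

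All values are deposited log2 intensities, and a difference of 1 on that scale is a change of 2-fold. Array medians lay between 4.33 and 4.40 and the correlation between any 2 arrays, taken across genes, between 0.977 and 0.994. The pluripotency factor Pou5f1 was bright on all arrays, at 12.05, 12.02, 12.10 and 11.93 on days 3 to 6 with vitamin C and 12.11, 12.09, 12.09 and 12.09 in untreated cells. Of 10 pluripotent markers, 3 passed the test as higher with vitamin C (limma, adjusted p under 0.05): Dppa5a by 3.44, Nanog by 1.79 and Utf1 by 1.10. Of all genes, 0.537% passed as higher and 0.216% as lower. Of 15 feeder or fibroblast markers, Col5a2 was lower by 0.73 and Fbln2 by 0.81, the other 13 did not pass, and the sum of the list on the linear scale ran from 1489.6 to 2603 with vitamin C, against 1830.4 to 4243 in untreated cells. The smallest value of any probe set was 0.76, so no marker could be listed at 0 and the values give no call of presence or absence. Some markers lay below the array medians, such as Fap, at 3.16, 2.97, 2.81 and 2.35 with vitamin C and 3.31, 2.99, 2.60 and 2.27 in untreated cells. In bulk RNA of this kind, fewer cells of a type and less RNA per cell cannot be told apart, and the part of these markers in the results below was not tested.

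Vitamin C was set against no vitamin C over the 4 days, with the 2 arrays of each day paired. None of the 88 oxidative phosphorylation genes passed the test, against 0.752% of all genes, made up of 0.537% higher and 0.216% lower (limma, moderated two-sided test with day as a factor, Benjamini-Hochberg adjustment over 19938 genes, threshold 0.05). At an unadjusted p under 0.05 there were 2 of 88, or 2.27%, against 12.7% of all genes, namely Cox7a1 and Ndufs4, both higher with vitamin C. The mean difference, vitamin C minus untreated, had a median of 0.02 over the 88 genes and -0.01 over all genes, and 51 of the 88 lay above 0, or 58%, against 48.2% of all genes. The median over the 88 genes was -0.02 without day 4 and 0.04 without day 6, so its sign rests on single days. The mean difference was within 0.25 of 0 for 84 of the 88. On all 4 days 75 of the 88 genes stayed within 0.5 of the untreated value, or 85.2%, against 69.2% of all genes. Among the 6388 genes with a mean log2 of at least 6 the share was 80.1%, so the contrast was smaller there. The only one of the 88 with a difference of at least 2-fold on any day was Cox7a1 on day 5. The share of all genes with such a difference was 0.672%, 1.09%, 1.23% and 1.82% on days 3 to 6. With vitamin C 7 of the 88 lay above the untreated value on all 4 days, or 7.95%, against 9.29% of all genes, and 6 lay below it, or 6.82%, against 11.1% of all genes. The 7 were Cox7a1, Ndufs4, Ndufa5, Ndufa13, Ndufaf5, Atp5g2 and Atp5h, and the 6 were Sdha, Atp5b, Cox6b2, Ndufs1, Ndufaf1 and Uqcrc1.

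**Figure D1:**
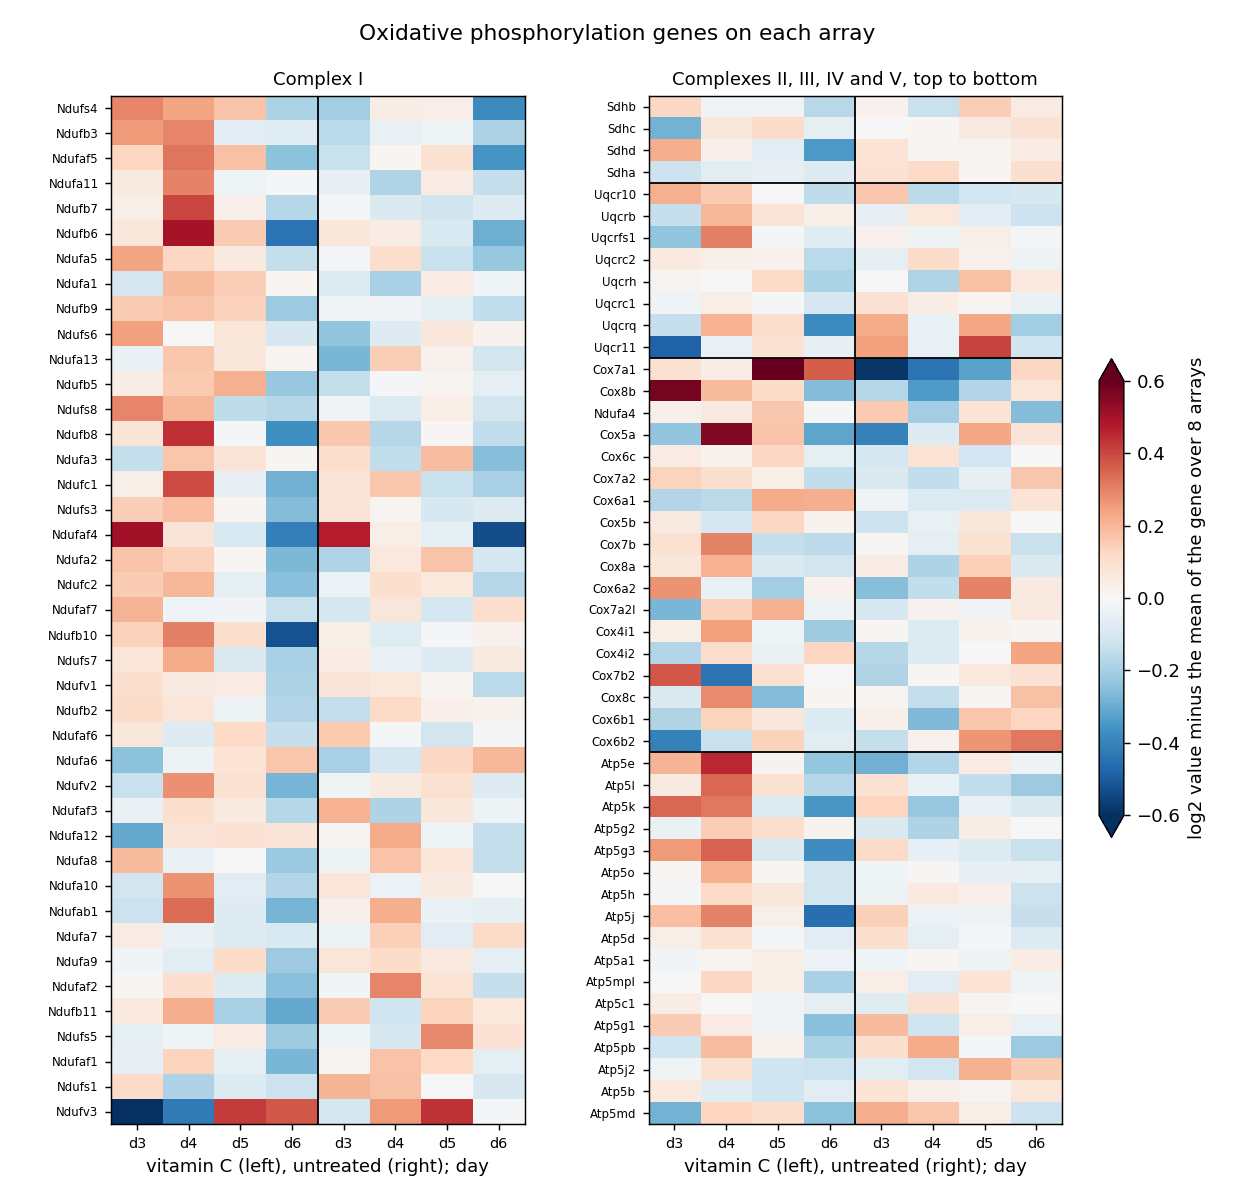
Each row is 1 of the 88 genes and each column 1 array, with the 4 vitamin C arrays left of the 4 untreated arrays in day order, and the colour is the log2 value minus the mean of that gene over 8 arrays (scale capped at 0.6 either way). Complex I is in the left panel and complexes II, III, IV and V follow from top to bottom in the right panel; most rows are pale, and among those with stronger colours, Ndufv3 is below its mean on days 3 and 4 and above it on days 5 and 6 with vitamin C, and Ndufaf4 is above its mean on day 3 and below it on day 6 in both treatments.

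The direction of the small differences was not the same on every day. With vitamin C minus untreated, the median over the 88 genes was 0.02, 0.16, -0.02 and -0.11 on days 3 to 6, where the median of all genes was 0.02, 0.00, -0.02 and -0.03. The number of the 88 above 0 was 50, 64, 41 and 22 on these days, or 56.8%, 72.7%, 46.6% and 25%, against 52.8%, 50.3%, 46.5% and 44.6% of all genes. On day 4 the median was above 0 in each complex, at 0.12 in complex I, 0.04 in complex II, 0.16 in complex III, 0.25 in complex IV and 0.19 in complex V. On day 6 it was below 0 in each, at -0.11, -0.19, -0.06, -0.09 and -0.12 in the same order. Over the 88 genes the medians of days 4 and 6 were 0.17 and -0.13 when the arrays were centred on their medians, and 0.24 and -0.12 when they were quantile normalized again.

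Each daily difference rests on 2 arrays, so it has no error of its own. Relative to each gene's mean over 8 arrays, the median of the 88 genes was 0.05, 0.13, 0.03 and -0.16 on days 3 to 6 with vitamin C, and -0.01, -0.03, 0.03 and -0.04 in untreated cells, so the arrays farthest from the others were those of days 4 and 6 with vitamin C. On the same days 77 mitochondrial ribosome proteins had daily medians of 0.06, 0.15, -0.03 and -0.03, and 55 cytosolic ribosome proteins, a list added after values were seen, had -0.01, 0.12, -0.02 and -0.08. The feeder or fibroblast markers had daily medians of -0.51, -0.72, -0.50 and -0.20. What these lists have to do with the oxidative phosphorylation genes was not tested.

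**Figure D2:**
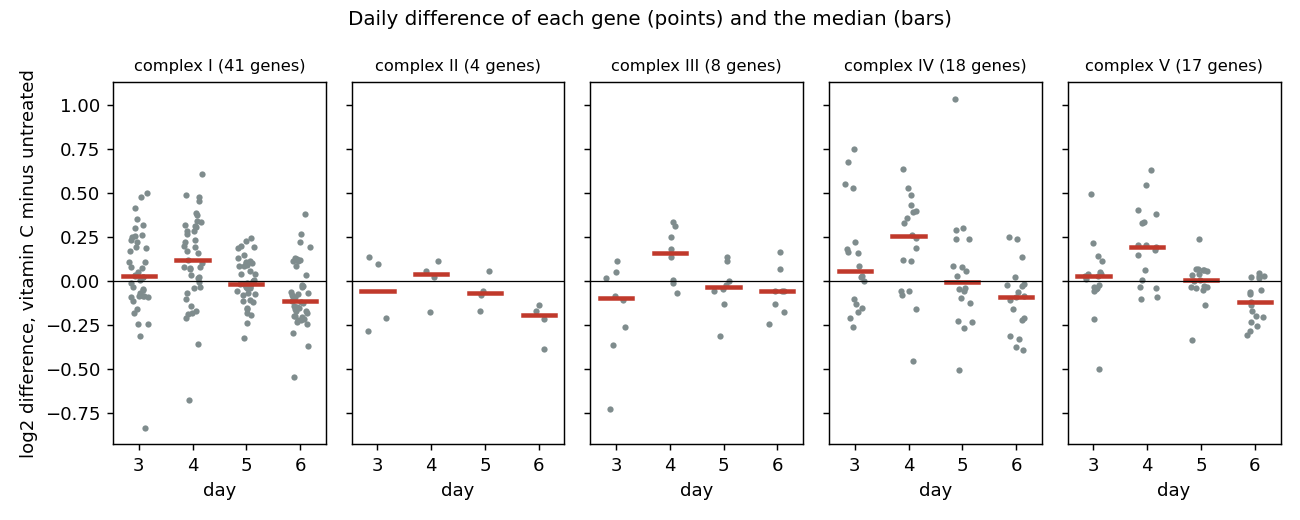
For each complex, the points are the log2 differences (vertical axis, vitamin C minus untreated) of its genes on days 3 to 6 (horizontal axis), and the red bars are the medians. The bars lie above 0 on day 4 and below 0 on day 6 in all 5 complexes, by at most 0.25.

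Complex I was the largest group, and 24 of its 41 genes had a mean difference above 0 and 17 below, with a median of 0.01. Ndufs4, an accessory subunit of the NADH dehydrogenase module mutated in some cases of human Leigh syndrome, had log2 values of 7.55, 7.50, 7.43 and 7.07 on days 3 to 6 with vitamin C, against 7.05, 7.30, 7.30 and 6.88 in untreated cells. It was higher with vitamin C on all 4 days, but the groups overlapped, and its mean difference of 0.25 ± 0.11 (SE) had an adjusted p of 0.382 in limma. Ndufv3, another accessory subunit of that module, had the lowest mean difference of the set: its values were 5.53, 6.05, 6.89 and 6.85 with vitamin C, against 6.37, 6.73, 6.91 and 6.47 in untreated cells, a mean difference of -0.29 ± 0.19 (SE; adjusted p = 0.613). Its daily differences were -0.84, -0.68, -0.02 and 0.38 on days 3 to 6, so the sign was not the same on all days.

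None of the core subunits of complex I passed the test either. Ndufs1, which carries iron-sulphur clusters of the NADH dehydrogenase module, had 8.02, 7.72, 7.83 and 7.78 with vitamin C, against 8.11, 8.08, 7.91 and 7.81 in untreated cells, and its mean difference was -0.14 ± 0.11 (adjusted p = 0.668). It lay below the untreated value on each day, with overlapping groups. Ndufv1, the flavoprotein that binds NADH, averaged 8.63 ± 0.13 with vitamin C and 8.62 ± 0.11 in untreated cells (SD, n = 4 each), a difference of 0.01. Ndufa11, an accessory subunit, had 7.51, 7.75, 7.43 and 7.44 with vitamin C, against 7.40, 7.28, 7.50 and 7.32 in untreated cells (0.16 ± 0.12, adjusted p = 0.659). This mean difference was 0.05 without day 4, and a second probe set of Ndufa11 gave -0.07. Of the 7 assembly factors, which help to build complex I without being part of it, 3 had a mean difference above 0 and 4 below, the extremes being Ndufaf5 at 0.19 and Ndufaf1 at -0.13.

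In complex II, succinate dehydrogenase, the mean difference was below 0 for all 4 genes, with a median of -0.08, and all 4 were also below 0 after centring on array medians and after a second quantile normalization. Sdha, the flavoprotein that oxidizes succinate, had 8.64, 8.70, 8.72 and 8.69 with vitamin C, against 8.85, 8.88, 8.78 and 8.86 in untreated cells. All 4 vitamin C arrays lay below all 4 untreated arrays, which held for Sdha alone of the 88 genes in that direction, or 1.14%, against 2.61% of all genes, and for none in the other, against 2.1% of all genes. The mean difference of -0.16 ± 0.10 did not pass (limma, adjusted p = 0.597). Sdhb, the iron-sulphur subunit, had 6.82, 6.67, 6.67 and 6.52 with vitamin C, against 6.72, 6.56, 6.84 and 6.74 in untreated cells, with a mean difference of -0.04 ± 0.11. The membrane anchors had mean differences of -0.08 ± 0.11 for Sdhc and -0.08 ± 0.12 for Sdhd. Sdhd had 8.47, 8.28, 8.19 and 7.91 with vitamin C, against 8.34, 8.26, 8.27 and 8.30 in untreated cells, and was below the untreated value on days 5 and 6 and above it on days 3 and 4. Without day 6 the mean differences of Sdhb and Sdhd were 0.01 and 0.02, so their sign below 0 rests on that day.

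In complex III, the cytochrome bc1 complex, 2 of 8 genes had a mean difference above 0, Uqcr10 and Uqcrb, and the median was -0.03. After a second quantile normalization 4 of 8 were above 0 and the median was 0.00, so no direction holds for this complex. Uqcrc1, a large matrix-facing subunit, averaged 8.77 ± 0.06 with vitamin C and 8.82 ± 0.05 in untreated cells (SD, n = 4 each) and had daily differences of -0.11, -0.01, -0.02 and -0.06 on days 3 to 6. Uqcrfs1, the Rieske iron-sulphur protein, had 5.93, 6.47, 6.16 and 6.10 with vitamin C, against 6.20, 6.14, 6.21 and 6.16 in untreated cells, a mean difference of -0.01 ± 0.12. Uqcr11, a small subunit, had 5.58, 6.02, 6.15 and 6.02 with vitamin C, against 6.31, 6.02, 6.47 and 5.95 in untreated cells, and a mean difference of -0.24 ± 0.14 (adjusted p = 0.553). A second probe set of Uqcr11 gave a mean difference of 0.11, so the array does not settle its direction.

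In complex IV, cytochrome c oxidase, 15 of 18 genes had a mean difference above 0 (14 of 18 after a second quantile normalization), with a median of 0.04. By day, 11, 13, 9 and 4 of the 18 lay above 0 on days 3 to 6. The daily medians were 0.06, 0.25, -0.01 and -0.09, so the direction was not the same on all days. Several of its subunits exist as a general isoform and as one used mainly in heart and skeletal muscle, lung or testis. Cox7a1, the heart and muscle isoform of subunit 7a, had the largest mean difference of all 88 genes. Its values were 4.90, 4.86, 5.53 and 5.18 on days 3 to 6 with vitamin C, against 4.23, 4.37, 4.49 and 4.94 in untreated cells. It was higher with vitamin C on each day, by 0.67, 0.49, 1.04 and 0.24, and the groups overlapped only through the untreated array of day 6. The mean difference of 0.61 ± 0.14 (SE), 1.52-fold, missed the threshold (limma, adjusted p = 0.0924). With day as a number in place of a factor its adjusted p was 0.05, just inside the threshold.

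The general isoform Cox7a2 had 7.54, 7.50, 7.44 and 7.26 with vitamin C, against 7.32, 7.26, 7.36 and 7.57 in untreated cells, and a mean difference of 0.06 ± 0.12. The groups overlapped. Cox7a2l, the supercomplex factor of the same family, had a mean difference of 0.02. The markers of heart or skeletal muscle gave no call in this comparison (0 of 8), and their summed linear value was 154.8 to 164.4 with vitamin C, against 147.5 to 179.8 in untreated cells. Cox8b, the heart and muscle isoform of subunit 8, had 3.84, 3.45, 3.37 and 3.00 with vitamin C, against 3.09, 2.92, 3.09 and 3.33 in untreated cells, all below the array medians. Its difference was 0.75, 0.53, 0.29 and -0.33 on days 3 to 6, and its mean difference of 0.31 ± 0.17 did not pass (adjusted p = 0.506). Cox6a2, the muscle isoform of subunit 6a, had a mean difference of 0.03.

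Cox6b2, the testis isoform of subunit 6b, was lower with vitamin C on each day: 5.32, 5.59, 5.87 and 5.67 with vitamin C, against 5.59, 5.75, 5.99 and 6.04 in untreated cells, a mean difference of -0.23 ± 0.10 (adjusted p = 0.402). The groups overlapped. The other testis isoforms, Cox7b2 and Cox8c, had mean differences of 0.01 and -0.03, and the 5 markers of testis germ cells gave 0 calls, with a summed linear value of 31.5 to 39.4 with vitamin C, against 31.4 to 36.0 in untreated cells. The lung isoform Cox4i2 averaged 4.84 ± 0.14 with vitamin C and 4.83 ± 0.18 in untreated cells (SD, n = 4 each), and its general counterpart Cox4i1 averaged 8.61 ± 0.19 with vitamin C and 8.59 ± 0.05 in untreated cells. The general isoforms Cox6a1, Cox6b1 and Cox8a had mean differences of 0.05, -0.03 and 0.04, and Cox6c and Cox7b had 0.07 and 0.05. A second probe set of Cox7b gave -0.27.

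**Figure D3:**
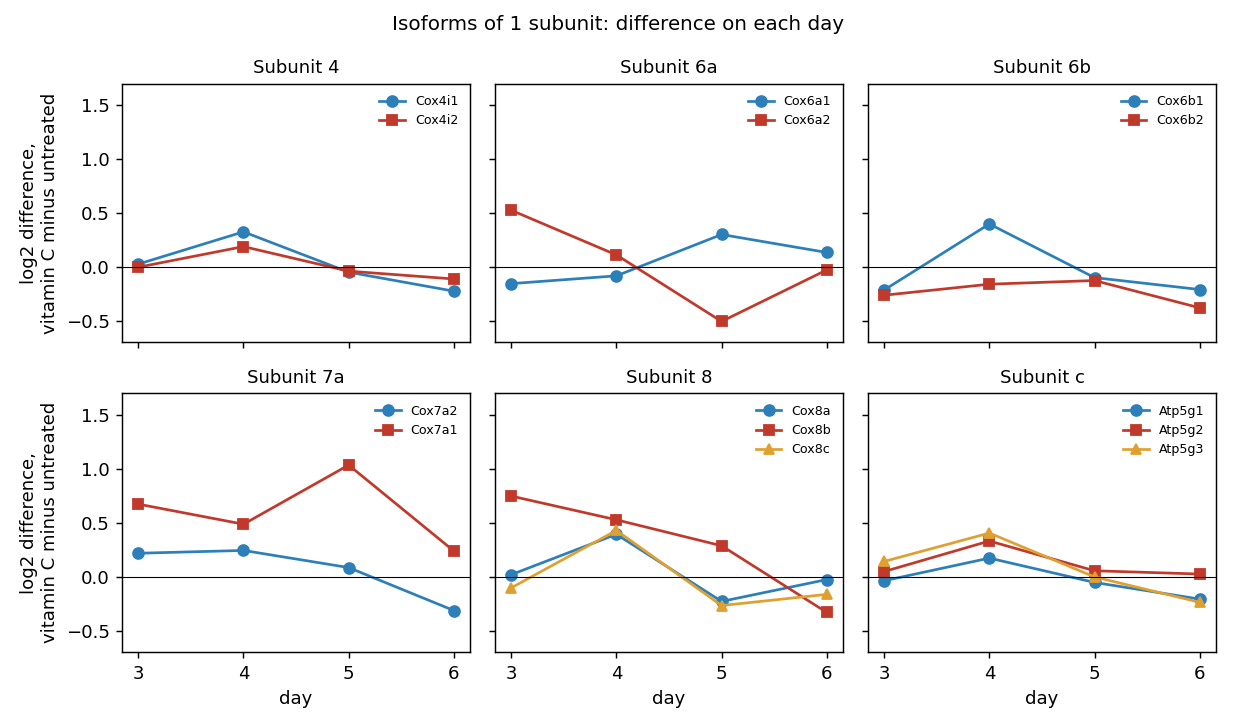
The log2 difference, vitamin C minus untreated (vertical axis), is drawn for days 3 to 6 (horizontal axis) for the isoforms of 1 subunit in each panel: 5 subunits of complex IV and subunit c of complex V. Cox7a1 lies above 0 on all days and reaches 1.04 on day 5, Cox8b stands at 0.75 on day 3 and at -0.33 on day 6, and the general isoforms stay within 0.5 of 0.

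Cox5a, a matrix-facing subunit of complex IV, had 6.48, 7.27, 6.89 and 6.40 with vitamin C, against 6.31, 6.64, 6.95 and 6.79 in untreated cells, and its mean difference of 0.09 ± 0.16 turned to -0.10 without day 4. Ndufa4, first assigned to complex I and now counted with complex IV, had 8.32, 8.34, 8.45 and 8.28 with vitamin C, against 8.45, 8.08, 8.37 and 8.03 in untreated cells, a mean difference of 0.12 ± 0.11 (adjusted p = 0.747). Its paralogue Ndufa4l2, which is known as a target of hypoxia-inducible factor and is not one of the 88, had 4.89, 5.70, 6.89 and 7.15 on days 3 to 6 with vitamin C, against 4.11, 4.95, 5.69 and 6.59 in untreated cells. Its mean difference was 0.82 ± 0.13 (adjusted p = 0.027), and it rose by 0.80 per day with vitamin C (adjusted p = 0.000523) and by 0.82 per day in untreated cells (adjusted p = 0.0018).

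In complex V, ATP synthase, 10 of 17 genes had a mean difference above 0 and 7 below, with a median of 0.03. The catalytic head differed little: Atp5a1, the alpha subunit, averaged 10.87 ± 0.03 with vitamin C and 10.87 ± 0.03 in untreated cells (SD, n = 4 each). Atp5b, the catalytic beta subunit, had 10.52, 10.38, 10.34 and 10.39 with vitamin C, against 10.54, 10.49, 10.48 and 10.53 in untreated cells, lower on each day with a mean difference of -0.10 ± 0.10 (adjusted p = 0.752). Atp5e, the epsilon subunit of the rotor, had the largest mean difference of the complex: 6.96, 7.21, 6.78 and 6.53 with vitamin C, against 6.47, 6.58, 6.81 and 6.73 in untreated cells, or 0.22 ± 0.15 (adjusted p = 0.622). It was higher with vitamin C on days 3 and 4 and lower on days 5 and 6.

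The 3 genes for subunit c, which code for the same mature protein of the proton-driven ring, had mean differences of -0.03 for Atp5g1, 0.12 for Atp5g2 and 0.08 for Atp5g3. A second probe set of Atp5g1 gave 0.15. Atp5g2 was higher with vitamin C on each day, with 10.11, 10.29, 10.25 and 10.17 against 10.06, 9.96, 10.19 and 10.14 in untreated cells. Atp5md, a small membrane subunit also called DAPIT, had a mean difference of -0.15 ± 0.12 (adjusted p = 0.695), and of -0.03 without day 3. Its other probe sets gave -0.05 and 0.04, so its direction is not settled. Atp5l, subunit g, was at 0.16 ± 0.11. It has 6 probe sets under its symbol on this array, and their mean differences lay between 0.11 and 0.16.

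A separate test asked whether the difference between vitamin C and untreated cells grew or shrank with day. No gene of the 88 passed, against 0.0652% of all genes (limma, slope on day within each treatment), and at an unadjusted p under 0.05 there were 3 of 88, or 3.41%, against 11.3% of all genes. The change of the difference was below 0 for 66 of the 88 genes, or 75%, against 55.1% of all genes, with a median of -0.05 per day against -0.02, and for 68 and 74 of the 88 under the 2 other scalings. Without day 6 the median was 0.00, so the sign rests on that day. Ndufv3 had the largest value upwards, 0.43 ± 0.14 per day (SE; adjusted p = 0.281), and Cox8b and Atp5e the largest downwards among those with an unadjusted p under 0.05, -0.35 ± 0.09 (adjusted p = 0.21) and -0.27 ± 0.10 (adjusted p = 0.36). A slope that passed in 1 treatment and not in the other, below, is therefore not shown to differ between treatments.

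With vitamin C, 4 of the 88 genes changed with day, or 4.55%, against 8.64% of all genes: Ndufv3 rose, while Ndufaf4, Cox8b and Atp5k fell. Rises came to 1 gene of 88 against 5.25% of all genes, and falls to 3.41% against 3.39%. The slope was below 0 for 68 of the 88, or 77.3%, against 57.1% of all genes (73 and 71 of the 88 under the other scalings), with a median of -0.06 per day against -0.02. By complex it was below 0 for 35 of 41 genes of complex I, 2 of 4 of complex II, 5 of 8 of complex III, 11 of 18 of complex IV and 15 of 17 of complex V. Without day 6 the median was -0.01, and without day 3 it was -0.13.

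Ndufv3 rose by 0.48 ± 0.10 per day with vitamin C (SE, limma, adjusted p = 0.0143), and its slope in untreated cells was 0.05 ± 0.10 (adjusted p = 0.849). As its values above show, the vitamin C arrays of days 3 and 4 were low that of day 5 was close to the untreated one, and that of day 6 was above it. Without day 3 the slope was 0.40 and the adjusted p 0.178. Ndufaf4, an assembly factor that acts early in the building of complex I, had 6.76, 6.33, 6.17 and 5.85 on days 3 to 6 with vitamin C, against 6.73, 6.30, 6.20 and 5.73 in untreated cells. It fell in both treatments, by 0.29 per day with vitamin C (adjusted p = 0.0179) and by 0.31 per day in untreated cells (adjusted p = 0.0348), and the treatments differed by at most 0.12 on any day. The untreated fall missed the threshold without any 1 of the days, with adjusted p from 0.0522 to 0.737, and the fall with vitamin C did so without day 3, 5 or 6.

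Atp5k, subunit e of ATP synthase, which takes part in dimer formation, had 7.15, 7.12, 6.73 and 6.46 with vitamin C, against 6.93, 6.58, 6.76 and 6.72 in untreated cells. It fell by 0.25 per day with vitamin C, with an adjusted p of 0.0497 just inside the threshold, which it missed without any 1 of the days. Cox8b fell by 0.26 per day with vitamin C (adjusted p = 0.0373) and missed the threshold without day 3, 5 or 6. Just outside the threshold were Atp5g3, with a slope of -0.23 (adjusted p = 0.0558), and Sdhd, with -0.18 (adjusted p = 0.0842). Over the same days 8 of the 15 feeder or fibroblast markers fell and 8 of the 10 pluripotent markers rose with vitamin C, and in untreated cells 9 of the 15 fell and 3 of the 10 rose. Of all genes, 3.39% fell and 5.25% rose with vitamin C, and 0.968% fell and 0.782% rose in untreated cells. The part of the markers in these slopes was not tested.

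**Figure D4:**
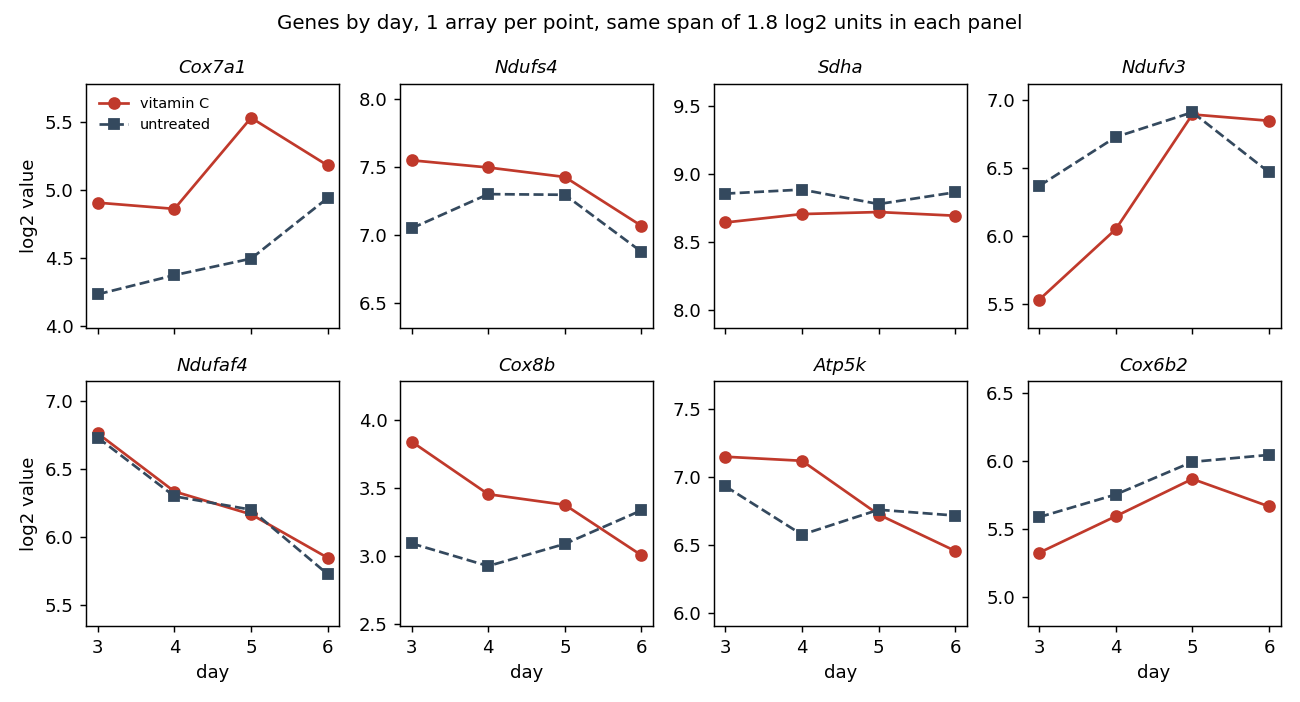
Log2 values (vertical axis, the same span in each panel) of 8 genes on days 3 to 6 (horizontal axis), 1 array per point, with vitamin C in red circles and untreated cells in grey squares. Cox7a1 and Ndufs4 lie above and Sdha and Cox6b2 below the untreated line on each day, Ndufaf4 falls along the same line in both treatments, and Ndufv3 with vitamin C starts below the untreated line and ends above it.

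In untreated cells Ndufaf4 was the 1 gene of the 88 that changed with day, or 1.14%, against 1.75% of all genes, made up of 0.782% that rose and 0.968% that fell. At an unadjusted p under 0.05 there were 4 of 88, or 4.55%, against 17% of all genes, the other 3 being Cox6b2, Cox7a1 and Ndufa6, all with slopes above 0. The slope was below 0 for 53 of the 88, or 60.2%, against 48.4% of all genes and 3979 of the 6388 genes with a mean log2 of at least 6. Its median was -0.01. After a second quantile normalization the slope was below 0 for 39 and the median was 0.01, so the set as a whole has no settled direction. In complex IV 15 of 18 genes had slopes above 0 (13 and 17 under the other scalings), with all 7 tissue-restricted isoforms among the 15, and none passed. Cox7a1 had a slope of 0.22 ± 0.08 per day (SE; adjusted p = 0.213) and Cox6b2 one of 0.16 ± 0.07 (adjusted p = 0.258). Among the other complexes, the smallest p belonged to Atp5pb, subunit b of the stator, at -0.12 (adjusted p = 0.449), to Uqcr10 at -0.07 (adjusted p = 0.598; 0.03 without day 3) and to Sdhb at 0.03 (adjusted p = 0.832).

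**Figure D5:**
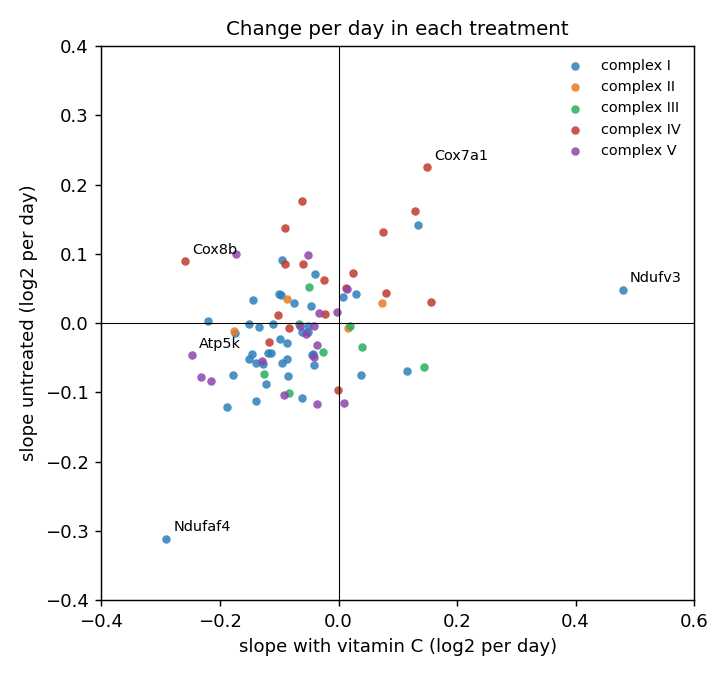
Each point is 1 of the 88 genes, placed by its log2 change per day with vitamin C (horizontal axis) and in untreated cells (vertical axis), and coloured by complex. Most points lie left of 0, with Ndufv3 at 0.48 on the right and Ndufaf4 below 0 on both axes.

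Promoter sequences are shown for some of the genes whose values stood out above, to set side by side those with and without a motif of the factors known to act on respiratory genes. Those of Ndufs4 and Sdha were searched as well and are not printed. The window searched ran from 250 bases before to 50 bases after the start of the gene in RefSeq on GRCm38.p6, and 73 of the 88 genes matched, with 78 windows. The letters searched, on both strands, were GCATGCGC for NRF1, CCGGAAGT for ETS factors such as NRF2, AAGGTCA for oestrogen-related receptors and AAGATGGC for YY1. Each line below is the 150 bases before the start, 5′ to 3′, with capitals where the NRF1 letters match. Those letters are nearly their own reverse complement, so overlapping matches on both strands make 1 run of capitals.
Ndufaf4, chr4:24897933-24898082, plus strand: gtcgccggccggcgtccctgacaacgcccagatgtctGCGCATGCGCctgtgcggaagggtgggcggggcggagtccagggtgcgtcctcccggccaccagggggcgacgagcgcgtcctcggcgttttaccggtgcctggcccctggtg
Atp5k, chr5:108434400-108434549, minus strand: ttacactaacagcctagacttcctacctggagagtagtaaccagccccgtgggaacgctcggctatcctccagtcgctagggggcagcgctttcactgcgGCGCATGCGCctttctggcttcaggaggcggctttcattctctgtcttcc
Ndufv3, chr17:31519965-31520114, plus strand: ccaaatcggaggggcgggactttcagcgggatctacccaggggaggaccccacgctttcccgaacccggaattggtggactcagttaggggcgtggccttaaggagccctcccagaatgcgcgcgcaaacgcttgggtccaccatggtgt
Cox7a1, chr7:30184021-30184170, plus strand: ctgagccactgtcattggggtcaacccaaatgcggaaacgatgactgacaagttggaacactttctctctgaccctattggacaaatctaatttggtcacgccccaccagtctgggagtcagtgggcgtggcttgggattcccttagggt
Cox8b, chr7:140900447-140900596, minus strand: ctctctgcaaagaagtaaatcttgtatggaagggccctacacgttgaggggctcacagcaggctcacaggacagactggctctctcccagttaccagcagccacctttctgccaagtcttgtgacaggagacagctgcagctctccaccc

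The stretches of Ndufaf4 and Atp5k hold the same run of capitals, and in Ndufaf4 the NRF1 letters occur again at the start itself. Past the start, the window of Atp5k also holds the oestrogen-related receptor letters, from position 23. In the windows searched but not printed, that of Ndufs4 holds the YY1 letters, from position 35, and that of Sdha holds none of the 4 motifs. Ndufaf4, Atp5k and Cox8b fell with vitamin C and Ndufv3 rose, and the windows of Ndufv3, Cox7a1 and Cox8b hold none of the 4 motifs. Among all the matched oxidative phosphorylation genes, the NRF1 letters were found in 12 of 73, or 16.4%, against 3.05% of the 27025 genes with a window. The YY1 letters were found in 10 of 73, or 13.7%, against 3.19%, the oestrogen-related receptor letters in 7, or 9.59%, against 5.38%, and the ETS letters in 5, or 6.85%, against 4.31%. The windows of the members were also richer in CpG, with a median of 19.5 per window against 7 over all windows. A match is a run of letters and not a shown site, and these shares are a description.

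The 12 genes with the NRF1 letters were Ndufa6, Ndufa8, Ndufa11, Ndufaf4 and Ndufaf5 of complex I, Sdhb of complex II, Uqcrc1 and Uqcr11 of complex III, Cox6a1 of complex IV, and Atp5g2, Atp5k and Atp5l of complex V. Of these, Ndufaf4 and Atp5k passed a test over days and the other 10 passed in none of the 4 comparisons.

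In the lists of other genes linked to the respiratory chain, Ndufa4l2 was the only call in the vitamin C comparison. Over days, the share of calls differed from list to list. Of 38 further assembly factors, none passed in the vitamin C comparison and 1, Uqcc1, which serves complex III, fell with day in vitamin C at -0.29 per day (limma, adjusted p = 0.0213). Of 21 regulators of mitochondrial gene expression none passed in any of the 4 comparisons. Of 25 genes of the tricarboxylic acid cycle and pyruvate entry none passed in the vitamin C comparison, with 21 below 0 (20 after a second quantile normalization) and a median of -0.07. Below 0 were 51.8% of all genes and 3742 of the 6388 genes with a mean log2 of at least 6. Over days with vitamin C, 5.25% of all genes rose and 3.39% fell. In this list Idh2, an isocitrate dehydrogenase, rose by 0.29 per day and Pcx, pyruvate carboxylase, by 0.31. Pdhx, a component of the pyruvate dehydrogenase complex, fell by 0.41. The carrier Slc25a4, which exchanges ADP for ATP, fell by 0.28 per day with vitamin C, and the other 10 carriers of its list did not pass.

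Among 16 genes of cytochrome c and ubiquinone synthesis, Cyct, the testis form of cytochrome c, rose by 0.32 per day with vitamin C (adjusted p = 0.0412). Its values were 2.71, 2.61, 2.91 and 3.68 with vitamin C, against 2.77, 2.53, 2.52 and 2.47 in untreated cells. All lay below the array medians, and the rise came mostly from the single array of day 6. Of 77 mitochondrial ribosome proteins, none passed in the vitamin C comparison. With vitamin C 6 of them fell with day, Mrpl13, Mrpl20, Mrpl47, Mrpl50, Mrpl54 and Mrps6, where 3.39% of all genes fell, and 71 of 77 had slopes below 0 (72 and 71 under the other scalings), against 57.1% of all genes. In untreated cells none passed and 62 of 77 had slopes below 0 (65 and 53 under the other scalings). Untreated slopes were below 0 for 48.4% of all genes and for 3979 of the 6388 genes with a mean log2 of at least 6. In a list of 11 hypoxia-linked and supercomplex genes, Bnip3, a mitophagy receptor, rose by 0.95 per day with vitamin C (adjusted p = 0.000521) and by 0.64 in untreated cells (adjusted p = 0.00893). Its relative Bnip3l rose by 0.28 and Aifm1, apoptosis-inducing factor, fell by 0.30 per day with vitamin C.

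Of the subunits coded by mitochondrial DNA, the array names COX2 and ND3 by a single symbol. COX2, a core subunit of complex IV, had 12.08, 12.21, 12.17 and 12.25 on days 3 to 6 with vitamin C, against 12.14, 12.12, 12.13 and 12.09 in untreated cells, and ND3 of complex I had 10.54, 10.56, 10.70 and 10.64 with vitamin C, against 10.58, 10.56, 10.42 and 10.51 in untreated cells. Both were above the untreated value on days 4, 5 and 6 and below it on day 3. Their mean differences were 0.06 ± 0.10 and 0.09 ± 0.11, and neither passed in any comparison (limma, adjusted p = 0.881 and 0.792 for vitamin C over days).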

How the data were processed

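The data were 1 table of 28853 probe sets on 8 Affymetrix whole-transcript arrays. The deposited log2 values were made by the authors with Partek's RMA (per the submitters' processing notes) from 100 ng of RNA per array, per the labels' protocols. Not given in the sources used here are versions, probe set definitions and the array's genome build. RMA corrects background and evens out the arrays, which removes any overall change in RNA, and it compresses differences of dim probe sets. The scale was read from the values, of which the largest was 13.8. Levels of different probe sets are not compared, and precision is limited by having 8 arrays.

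For each gene the brightest probe set with a single symbol was used. Of the 88 members, 17 had more than 1 probe set, which gave the same sign of the vitamin C difference in 7, and 6 probe sets with several symbols were not used. Subunit genes have processed pseudogenes, so probe sets may read several loci.

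Tests were moderated two-sided tests of limma 3.58.1 in R 4.3.3, adjusted by Benjamini-Hochberg over 19938 genes, with a threshold of 0.05. The vitamin C effect was fitted with day as a factor (3 residual degrees of freedom). Day pairs the arrays in the labels, and deviations from the treatment means correlated within a day by 0.371, 0.18, 0.125 and 0.475 on days 3 to 6. For the vitamin C arrays of days 3 and 6 the same day gave the highest correlation. That of day 4 correlated more with untreated day 3 (0.216) and that of day 5 with untreated day 6 (0.272). The pairing by day therefore rests on the labels. Slopes and their difference were fitted with a slope on day in each treatment (4 residual degrees of freedom). The fits were tested on simulated data. The alternatives were other scalings, filters, probe set rules, thresholds and uses of day, limma's trend and robust options, and leaving out days. For the slopes and their difference, single arrays were left out as well. Tables and plots used Python 3.11.15, pandas 2.3.3 and matplotlib 3.10.9.

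Members and lists were chosen with earlier results of these data known. Named with their values were members past the threshold, those with the 2 largest and 2 smallest differences in each complex at a mean of at least 6, those with the smallest p in each complex, isoforms and complex II. Others, such as Ndufv1, Uqcrc1, Atp5a1 and Ndufaf5, were named after their values were seen, to describe a role. Promoters came from RefSeq on GRCm38.p6.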

Additional observations from a re-analysis of the deposited data

Results flagged for a closer look

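Of 92 groups of 4 arrays tested (40 named genes, and the medians of the 88 genes and of each complex, in either treatment), 1 held an array far from the others by Dixon's criterion at its 95% level. Cox4i1, the general isoform of subunit 4 of complex IV, had its lowest untreated value on day 4, 8.52, where the other untreated arrays had 8.60, 8.62 and 8.61, and the gap to the nearest was 0.849 of the range. With vitamin C its 4 arrays gave no such flag. By chance about 1 in 20 such groups would be picked out.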

How the results depend on the processing

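For vitamin C over days, 0 of the 88 genes passed in the reported fit and in every alternative other than day as a number and an adjusted p under 0.10, each of which gave 1, Cox7a1. With no replicate block, that is, with day left out of the pairing, 0 passed. Leaving out any single day also gave 0, and single arrays were not left out for this comparison. Without day 4 only 3 of all 19938 genes passed, so 0 of 88 says little there. For the interaction 0 passed in every alternative, the replicate block by day included. For the untreated slope the 1 call, Ndufaf4, was 0 when any single day or untreated array was left out and 0 at an adjusted p under 0.01. For the vitamin C slope the 4 calls became 9 with limma's trend and robust options, 7 at an adjusted p under 0.10 and 0 at 0.01. They ran from 1 to 4 when 1 day or vitamin C array was left out. The matching slope calls over all genes are not given here. In the vitamin C comparison the trend and robust options raised the calls over all genes from 150 to 376.

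Some values near 0 changed sign. The median vitamin C difference over the 88 genes, 0.0169 in the reported fit, was -0.0156 without day 4. The mean difference of Uqcrfs1 was 0.0025 after a second quantile normalization and 0.0751, 0.0027 and 0.0069 without day 3, 5 or 6. That of Cox6b1 was 0.0303 without day 3 and 0.0289 without day 6, and without day 6 those of Sdhb and Sdhd were 0.0129 and 0.0245. Without day 4, Cox4i1 was at -0.0820 and Cox5a at -0.0965. The untreated slope of Uqcr10 was 0.0308 without day 3 and ran from -0.1393 to 0.0308 when 1 day or array was left out. The causes were not tested.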

Other observations

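Several oxidative phosphorylation genes have a second probe set that was not used above. That of Cox5b gave a difference, vitamin C minus untreated, of 0.00, 0.07, 1.95 and 0.14 on days 3 to 6, while the brighter probe set of Cox5b gave 0.18, -0.06, 0.05 and 0.02. The gap in the mean difference, 0.49, was the largest among the 17 members with several probe sets, and it comes from day 5. In 3 of the 17 the gap was over 0.25, the others being Uqcr11 and Cox7b. These probe sets were picked out after their values were seen.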
